A study of Rattus norvegicus with 8 samples.

Results

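The heat shock proteins and their DNAJ co-chaperones were examined in rat calvarial osteoblast-like cells 6 h after a single exposure to an Er:YAG laser. The genes were taken by name: those of the small heat shock protein, HSP70, HSP90, mitochondrial chaperonin and DNAJ A, B and C families, plus Cryab, Bag3 and Hsf1. This gave 108 probes of 77 genes among the 45598 rat probes (34912 gene names) of the array, of which 94 probes of 67 genes were bright enough to be tested among 26399 probes tested in all. The cells came from calvariae of Wistar rats 3 to 5 days old, stripped of periosteum and released by serial enzyme digestion, so the cultures were primary and not a clone. In the irradiated group the medium was taken off and the dish was exposed at 3.3 J/cm2 for 60 s, and the non-irradiated group received 0 J/cm2; whether its dishes also stood without medium is not given in the sources used here. According to the methods, irradiated cells were then kept in osteoinduction medium (ascorbic acid, beta-glycerophosphate and dexamethasone), and the labels list that medium for all samples. Each group had 4 samples, hybridised from 200 ng of total RNA each in a single colour (Cy3). Below, C1 to C4 are the non-irradiated and L1 to L4 the irradiated arrays, numbered by replicate.

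Molecular chaperones hold unfolded proteins, keep them from aggregating and help them fold. HSP70 proteins bind exposed hydrophobic stretches in cycles driven by ATP, and DNAJ proteins, through their J domain, deliver clients to HSP70 and speed up its ATP hydrolysis. HSP90 completes the folding of kinases and hormone receptors, small heat shock proteins hold denatured clients without ATP, and the HSP60 and HSP10 ring folds proteins inside mitochondria. Under heat or other protein-damaging stress the transcription factor HSF1 binds heat shock elements, repeats of a short GAA unit in alternating orientation, and raises the inducible members. Osteoblasts secrete large amounts of collagen and rely on the chaperones of the endoplasmic reticulum. Since an Er:YAG laser is absorbed by water and can warm a cell layer, transcripts of these genes are a natural readout of a heat response.

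Of the markers of the cells' label, 10 of 10 osteoblast genes were well above background on all 8 arrays. Their mean log2 signals ran from 5.16 for Sp7 to 18.17 for Col1a1. Markers of other cell types were also present, with 9 of 10 striated muscle, 5 of 6 chondrocyte, 5 of 6 endothelial, 5 of 8 macrophage and 5 of 5 fibroblast and periosteum genes bright enough to be tested. Over the whole array 20639 of 34912 gene names had a tested probe, so these counts do not set the osteoblast label apart. Per array, 26543 to 30490 probes and 94 to 98 of the 108 chaperone probes were well above background, and no spot was saturated. All 8 arrays lay on 1 slide and were scanned once. The non-irradiated samples were in columns 1 and 3 and the irradiated ones in columns 2 and 4, so that slide position and irradiation cannot be told apart. Numbers 1 and 2 filled row 1 and numbers 3 and 4 row 2, each number in 2 adjacent columns. Slide position and replicate number therefore cannot be told apart either. Arrays C1 and L2, in columns 1 and 4 of row 1, stood apart. Their deviations from the group means correlated at 0.44 over 26250 probes, whereas those of C2 and L2, which share a replicate number, correlated at 0.06.

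Some rat chaperone genes hold a perfect heat shock element next to their start, and these are shown as examples of the sequence that HSF1 binds. The element was searched for as GAANNTTCNNGAA and, on the other strand, TTCNNGAANNTTC in RefSeq promoter windows of 300 bases (250 before and 50 after the start, assembly GRCr8). It was present in 5 of the 60 chaperone genes that had a window (8.33%) and in 267 of 33469 windows of all genes (0.798%). Each sequence reads 5′ to 3′ on the strand of its gene, with the bases that match in capitals:
Hspa8, chr8:50080295-50080319, plus strand: gagcgtGAAAGTTCCAGAAcgctgc
Hspa8, chr8:50080453-50080477, plus strand: gaacccTTCTGGAAGGTTCtaagac
Hsph1, chr12:10427326-10427350, plus strand: cgcagaTTCTGGAAAGTTCtcctca
Dnaja1, chr5:60638407-60638431, plus strand: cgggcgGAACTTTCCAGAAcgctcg
Hspe1, chr9:64084256-64084285, plus strand: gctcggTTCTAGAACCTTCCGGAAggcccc
Hspd1, chr9:64084256-64084285, minus strand: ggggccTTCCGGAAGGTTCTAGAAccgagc
The matches of Hspa8 began 213 and 55 bases before its start, that of Hsph1 36 bases before, and that of Dnaja1 9 bases after. Hspd1 and Hspe1, which encode HSP60 and HSP10 and are transcribed away from each other, share 1 stretch with overlapping matches in both orientations, 242 bases before the start of Hspd1 and 65 bases before that of Hspe1. Read on the brightest probe of each gene, the 5 genes with an element had a median log2 fold change (irradiated over non-irradiated) of 0.01, from -0.07 to 0.07. The other 48 tested genes with a window had a median of 0.01. An unadjusted limma p below 0.05 was found for 0 genes of either kind, where 2.56% of all probes tested had one. Imperfect elements and elements outside the windows were not searched for, so genes without a match may still be HSF1 targets.

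No chaperone or co-chaperone transcript passed the test for a difference between irradiated and non-irradiated cells. Of the 94 chaperone probes, 0 had an adjusted p below 0.1 (limma, Benjamini-Hochberg over all probes tested; 0% of 26399 probes did), and the smallest adjusted p was 1.00. At an unadjusted p below 0.05 the count was also 0 of 94, where 676 probes (2.56%) of the whole array passed. The smallest unadjusted p was 0.0743. Log2 fold changes lay between -0.39 and 0.27, with 48 above 0 and 46 below, and their median was 0.003 against 0.002 over all probes tested. Within replicate numbers, 1 chaperone probe was higher in 4 of 4 irradiated samples (3.82% of all probes were) and 4 were lower in 4 of 4 (3.64% of all probes). The 95% intervals bound the change of each tested probe at 6 h in these samples. The arrays covered 6 h only, so changes at earlier or later times were not read. The median interval of the 94 probes ran from 0.79-fold to 1.28-fold. The highest upper limit was a 1.79-fold rise, for Dnajc6, and a change below 0.5-fold lay within the interval of 2 dim probes, of Dnajc5 (lower limit 0.408-fold) and Dnaja3 (0.498-fold). With 4 pairs an exact two-sided sign-flip test cannot give a p below 0.125, so none is given for single genes. The scanner files give each replicate number its own rat number, shared by its non-irradiated and irradiated samples, but the labels say nothing further of separate cultures. With the number as a block, the limma p-values rest on the spread of the differences within numbers of these samples, moderated over all probes. In RNA from whole cultures, fewer cells of a type and less RNA per cell cannot be told apart.

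**Figure D1:**
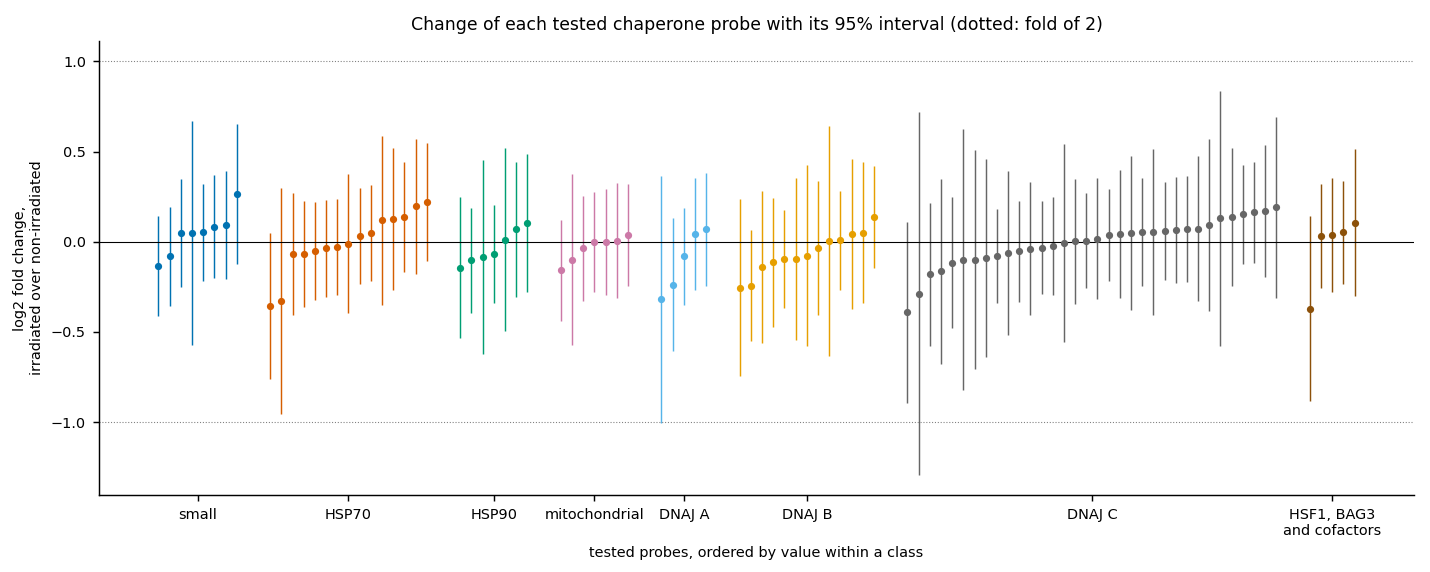
Log2 fold change, irradiated over non-irradiated, of each of the 94 tested chaperone probes (points), ordered by value within its class on the x axis, with the 95% interval of the limma fit (lines) and dotted lines at a fold of 2. All 94 intervals include 0, and the class centres lie close to it.

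The genes that heat shock raises most reliably in mammalian cells were read on 1 probe each. Of the 13, 12 were tested and 9 of these had a log2 fold change above 0. Their median was 0.05, and their highest upper limit was a 1.59-fold rise, that of Hspb1. Over all 20 tested probes of the same genes, 10 were above 0 and 10 below, with a median of 0.002.

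**Figure D2:**
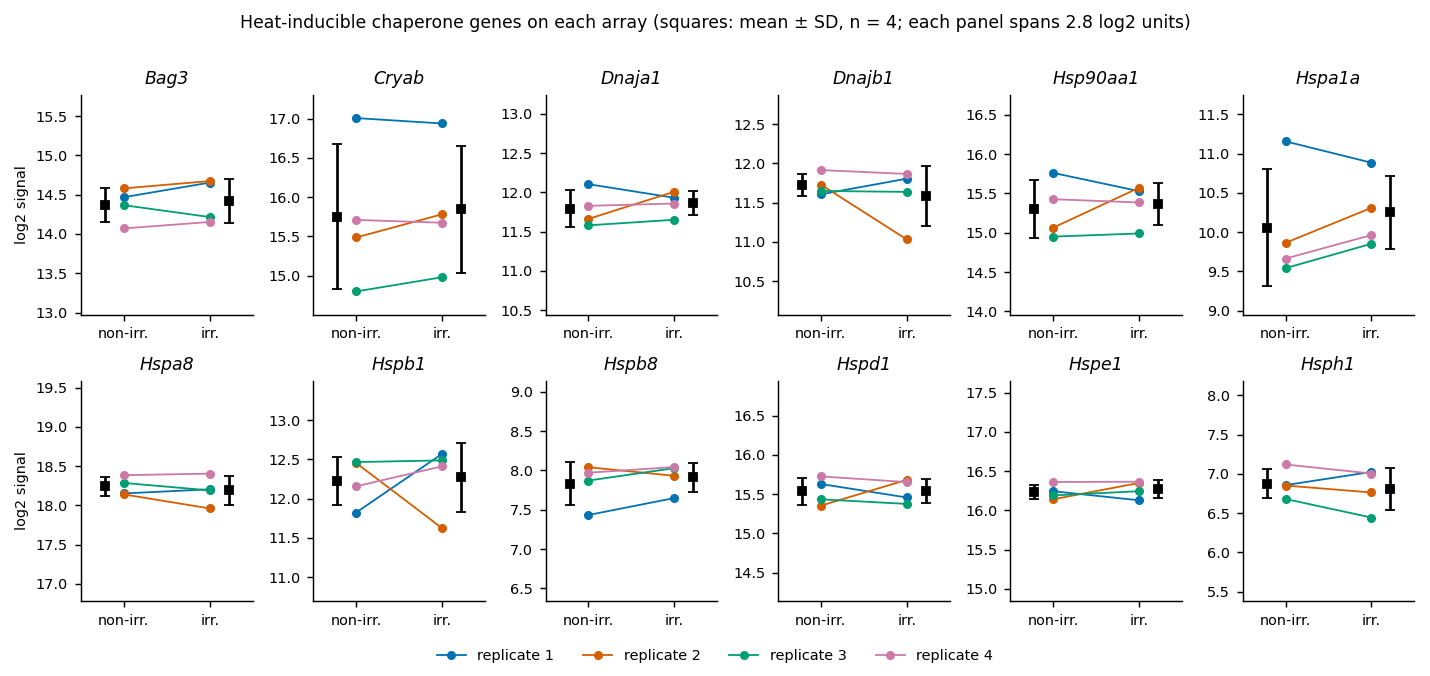
Log2 signal (y axis) of the 12 tested heat-inducible genes on each array, with lines joining the non-irradiated and irradiated sample of a replicate number and squares for the mean ± SD of 4. Lines slope in mixed directions within most panels, as for Hsp90aa1, higher in 2 of 4 pairs. In Cryab and Hspa1a the numbers lie further apart than the groups, but not only there. Over the 12 genes the median distance between the highest and lowest number mean was 0.48, and the median log2 fold change was 0.05.

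Hspa1a, the main stress-inducible cytosolic HSP70, was the heat-inducible gene with the largest fold change. Its log2 signal was 11.16, 9.86, 9.54 and 9.66 in C1 to C4 (mean 10.06 ± 0.75, SD, n = 4) and 10.88, 10.31, 9.85 and 9.96 in L1 to L4 (10.25 ± 0.46). The groups overlapped, and replicate number 1 was the highest in both. The irradiated sample was higher in 3 of 4 pairs and lower in pair 1, with a log2 fold change of 0.20 (SE 0.15; limma adjusted p = 1.00) and a 95% interval from 0.883-fold to 1.49-fold. Without replicate 1 the log2 fold change was 0.35 (SE 0.14), with an unadjusted limma p of 0.0498 and an adjusted p of 0.914. Hspa1a is flanked on chromosome 20 by the near-identical Hspa1b and, in mammals, by the testis-enriched Hspa1l. The Hspa1b probe was well above background on 0 of 8 arrays and the Hspa1l probe on 2 irradiated arrays, so neither was tested. The probes of these genes shared runs of at most 7 bases, but 2 probes of Hspa1a itself also shared only 7. Whether the Hspa1a probes match the RNA of the neighbouring genes was not examined. Another Hspa1a probe, shown because it reads the same RNA from a different place (rn4 chr20:3956838-3956897, plus strand), was well above background on 3 of 4 arrays in each group and was not tested:
Hspa1a, A_44_P109342: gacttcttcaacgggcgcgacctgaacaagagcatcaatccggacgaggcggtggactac

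Among the other HSP70 proteins the log2 fold changes ran from -0.36 to 0.22 over 14 tested probes, 6 of them above 0, with a median of -0.02. Hspa8, the constitutive cytosolic HSP70 (HSC70), was at 18.15, 18.14, 18.29 and 18.39 in C1 to C4 and at 18.20, 17.96, 18.19 and 18.40 in L1 to L4. Its log2 fold change was -0.05 (SE 0.11), and all 4 of its probes lay between -0.07 and -0.03. Hspa5, the HSP70 of the endoplasmic reticulum (BiP), had a log2 fold change of 0.05 (SE 0.11; 16.01 ± 0.10 and 16.06 ± 0.07). The spread between arrays of both genes was small, and their intervals ended at a 1.17-fold and a 1.24-fold rise. Hsph1, a nucleotide exchange factor of HSP70 (HSP110) and a carrier of the element above, was lower in 3 of 4 pairs. It was at 6.86, 6.85, 6.68 and 7.12 in C1 to C4 and 7.03, 6.76, 6.44 and 7.00 in L1 to L4, a log2 fold change of -0.07 (SE 0.12). Hspa13, an HSP70-like protein of microsomes, gave the smallest p of all the chaperone probes, with a log2 fold change of -0.36 (SE 0.17) on a dim probe. That probe was at 5.30, 5.19, 5.36 and 5.62 in C1 to C4 and 5.02, 4.91, 5.36 and 4.76 in L1 to L4. The brighter Hspa13 probe had the opposite sign, 0.13 (SE 0.16). Hspa2, known from spermatogenesis, had the largest log2 fold change of the class, 0.22 (SE 0.13), and was higher in 3 of 4 pairs. With C1 and L2 left out, a comparison without pairing, it was at -0.005.

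The small heat shock proteins had a median log2 fold change of 0.05 over 8 tested probes, 6 of them above 0. Hspb1 (HSP27), an actin-associated small chaperone, was at 11.82, 12.45, 12.46 and 12.16 in C1 to C4 and 12.57, 11.62, 12.49 and 12.41 in L1 to L4. Its 2 lowest arrays were L2 and C1, in opposite groups, and the log2 fold change of 0.05 had an SE of 0.25. Its sign depended on single pairs: the value was -0.18 without replicate 1, 0.34 without replicate 2 and -0.02 without replicate 4. Hspb8, which works with Bag3 in the disposal of misfolded proteins, was at 7.43, 8.04, 7.87 and 7.97 in C1 to C4 and 7.65, 7.93, 8.03 and 8.04 in L1 to L4. It was higher in 3 of 4 pairs, with a log2 fold change of 0.08 (SE 0.12). With C1 and L2 left out and no pairing it was at -0.05, where number 1, its lowest, remained only in the irradiated group. Hspb9, a testis-enriched member, had the largest log2 fold change of the 94 probes, 0.27 (SE 0.16), from 5.92 ± 0.37 to 6.19 ± 0.32. Hspb6 (HSP20) was lower in 4 of 4 pairs, by a log2 fold change of -0.13 (SE 0.11). Cryab (alpha B-crystallin) and Hspb2 are described with the replicate numbers below. Hspb11, a gene that RefSeq now names Ift25, was counted among the 8 probes by its array name and had a log2 fold change of -0.08.

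For HSP90 the median over 7 probes of 3 genes was -0.07, with 3 above 0. Hsp90aa1, the stress-inducible cytosolic HSP90, was at 15.76, 15.06, 14.95 and 15.43 in C1 to C4 and 15.53, 15.57, 14.99 and 15.39 in L1 to L4. It was higher in 2 of 4 pairs and lower in 2, with a log2 fold change of 0.07 (SE 0.15), and the other probe on the strand of the gene gave -0.10. A dim probe that the array design also names Hsp90aa1 gave 0.10 (SE 0.16), but its position (rn4 chr6:135413903-135413962) is on the plus strand, opposite to these probes. Without it the class median was -0.08 over 6 probes, 2 of them above 0. Hsp90ab1, the constitutive form, had -0.14 (SE 0.16), -0.07 (SE 0.11) and 0.01 (SE 0.21) on its 3 probes. Hsp90b1, the form of the endoplasmic reticulum (GRP94), had -0.09 (SE 0.22).

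The mitochondrial chaperones centred on 0, with a median of -0.002 over 7 probes. The HSP10 gene Hspe1 was at 16.24, 16.14, 16.19 and 16.36 in C1 to C4 and 16.13, 16.35, 16.24 and 16.36 in L1 to L4, a log2 fold change of 0.04 (SE 0.11). Hspd1, for HSP60, was at 15.63, 15.35, 15.44 and 15.73 in C1 to C4 and at 15.46, 15.68, 15.38 and 15.65 in L1 to L4. Its log2 fold change of 0.01 (SE 0.13) came from 1 pair that was higher and 3 that were lower, and another Hspd1 probe was lower in 4 of 4 pairs with -0.16 (SE 0.11). Hspa9 (mortalin), which pulls proteins into the matrix, had -0.002 and -0.04 on 2 probes.

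The DNAJ co-chaperones made up 52 of the 94 tested probes, 26 above 0 and 26 below. DNAJ A and B proteins, which bind clients themselves, had medians of -0.08 over 5 probes and -0.08 over 13 probes. Within pairs 1 to 4 the DNAJ A medians were 0.00, -0.08, -0.16 and -0.12, and the DNAJ B medians were 0.01, -0.16, -0.09 and 0.02. Over all probes tested the pair medians were -0.05, 0.09, -0.02 and 0.00. The DNAJ A median was thus below that of all probes in pairs 2, 3 and 4 and above it in pair 1, on 5 probes of 4 genes.

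**Figure D3:**
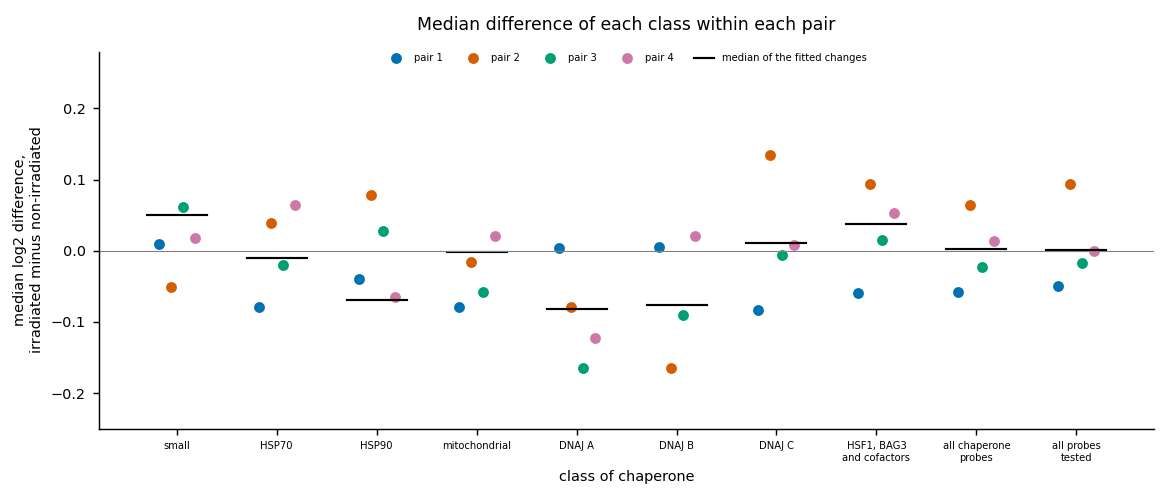
Median log2 difference, irradiated minus non-irradiated, of each chaperone class within each of the 4 pairs (points), with the median of the fitted changes (bars), beside all chaperone probes and all probes tested. Pair 2 gives the highest median for DNAJ C, at 0.14, and the lowest for DNAJ B, at -0.16, and in no class do the 4 pairs agree in sign.

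Dnajb1 (HSP40), the inducible partner of HSP70, was at 11.61, 11.73, 11.65 and 11.92 in C1 to C4 and 11.81, 11.03, 11.64 and 11.87 in L1 to L4. All arrays but L2 lay between 11.61 and 11.92. The log2 fold change was -0.14 (SE 0.17), and without replicate 2 it was 0.05. Dnaja1, a farnesylated cytosolic co-chaperone, was at 12.10, 11.66, 11.58 and 11.83 in C1 to C4 and 11.93, 12.01, 11.65 and 11.86 in L1 to L4, a log2 fold change of 0.07 (SE 0.13). Dnaja4, Dnajb3 and Dnajb4 gave the smallest p-values of these classes on either side, with log2 fold changes of -0.24 (SE 0.15), 0.14 (SE 0.12) and -0.24 (SE 0.13). Dnajb4, a heart- and muscle-enriched relative of Dnajb1, was lower in 4 of 4 pairs on that probe. Its brighter probe was lower in 3 of 4, with -0.10 (SE 0.11). With C1 and L2 left out and no pairing, these 2 Dnajb4 probes were at 0.11 and 0.16, and Dnajb3 was at -0.10. In that comparison number 1, the highest for Dnajb4, remained only in the irradiated group and number 2 only in the non-irradiated group. Within pairs 3 and 4 the first Dnajb4 probe was at -0.09 and -0.07 and the brighter one at -0.19 and -0.03. Dnajb9 and Dnajb11, co-chaperones of Hspa5 in the endoplasmic reticulum, had -0.09 (SE 0.18) and -0.11 (SE 0.15).

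DNAJ C proteins carry a J domain in otherwise unrelated proteins with specialised tasks. Their median was 0.01 over 34 probes, from -0.39 to 0.19, with 19 above 0. Dnajc8, a splicing-associated protein, was the 1 probe higher in 4 of 4 pairs, yet by a log2 fold change of 0.04 (SE 0.11), from 14.16 ± 0.04 to 14.20 ± 0.03. Dnajc4, a little-studied membrane protein, had the lowest log2 fold change of all, -0.39 (SE 0.21), on a dim probe at 5.42, 5.87, 5.79 and 5.86 in C1 to C4 and 5.34, 4.77, 5.80 and 5.46 in L1 to L4. L2 was the lowest array, and the other Dnajc4 probe gave -0.09 (SE 0.22). Dnajc11, of the mitochondrial membrane, gave the smallest p of the higher probes, with 0.16 (SE 0.11). Dnajc3, an inhibitor of the stress kinase PERK, and Dnajc10, a disulfide reductase of the endoplasmic reticulum, had -0.16 (SE 0.21) and 0.02 (SE 0.14).

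Hsf1, the regulator of the heat shock response, was at 10.83, 10.24, 10.34 and 10.38 in C1 to C4 and 10.78, 10.50, 10.31 and 10.33 in L1 to L4. Its probes gave log2 fold changes of 0.03 (SE 0.12) and 0.04 (SE 0.13); HSF1 is mainly regulated as a protein, which arrays do not read. Bag3, an HSF1 target and co-chaperone of HSP70, was at 14.47, 14.58, 14.37 and 14.07 in C1 to C4 and 14.65, 14.67, 14.22 and 14.15 in L1 to L4, a log2 fold change of 0.05 (SE 0.12). Hspbp1, a nucleotide exchange factor, had -0.37 (SE 0.21) and Hspbap1, a partner of Hspb1, had 0.11 (SE 0.17).

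The replicate number passed a test in 2 small heat shock protein genes, but differences between the numbers were not particular to them. The median distance between the highest and lowest number mean was 0.50 log2 units over the chaperone probes and 0.56 over all probes tested. The replicate number had an effect at an adjusted p below 0.05 (F test over the 4 numbers in the same limma fit) on 2 of the 94 chaperone probes, and on 881 of 26250 probes (3.36%) of the whole array. Cryab, a small heat shock protein abundant in lens and striated muscle, was at 17.01, 15.48, 14.80 and 15.71 in C1 to C4 and 16.94, 15.78, 14.98 and 15.67 in L1 to L4. Number 1 was the highest and number 3 the lowest in both groups, with means 2.08 log2 units apart (F = 50.7, adjusted p = 0.0154), while the irradiated and non-irradiated means differed by 0.09. Hspb2, a muscle-enriched member and neighbour of Cryab on chromosome 8, was also highest in number 1 and lowest in number 3 in both groups: 11.56, 10.52, 10.01 and 10.32 in C1 to C4 and 11.42, 10.80, 10.11 and 10.27 in L1 to L4 (means 1.43 apart, F = 26.2, adjusted p = 0.0358). The Cryab probe lies at rn4 chr8:54111396-54111455 on the plus strand and this Hspb2 probe at chr8:54105608-54105667 on the minus strand. The other Hspb2 probe (rn4 chr8:54105825-54105884, minus strand), shown because it read a smaller difference from the same gene, had means only 0.33 apart (adjusted p = 0.452):
Hspb2, A_64_P114638: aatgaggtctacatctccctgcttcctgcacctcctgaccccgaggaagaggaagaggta
Both calls depended on the set of arrays. With number 1, 3 or 4 left out, the adjusted p was 0.169, 0.103 and 0.0616 for Cryab and 0.278, 0.139 and 0.132 for Hspb2, and without the filter on dim probes it was 0.0702 and 0.104.

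Next in order came Dnajb4 (F = 15.7, adjusted p = 0.0643, and 0.0733 on its other probe), Hspa1a (F = 15.3, adjusted p = 0.0655) and Hspb6 (F = 12.8, adjusted p = 0.0783), which did not pass. Dnajb4 and Hspa1a were highest in number 1, by means of 10.95 against 9.93 to 10.39 and of 11.02 against 9.70 to 10.09. Hspb6 was lowest in number 1, with 8.54 against 9.06 to 9.47. With number 2 left out 19 of the 94 chaperone probes passed (20.2%), close to the share of all probes that did (20.9%). With number 1, 3 or 4 left out 0 did, where 0%, 0.423% and 0.408% of all probes passed.

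Markers of other cell types and of osteoblasts also differed between the replicate numbers. The log2 of the summed signal of the striated muscle markers was 13.07 in C1 and 12.83 in L1 and 11.27 to 12.12 on the other arrays. Of the 9 tested, 7 were highest in number 1, while Acta1 was highest in number 3 and Des in number 2. The test for the replicate number was passed by 4 of the 9, where 3.36% of all probes passed it. These were the embryonic and perinatal myosins Myh3 and Myh8 and the troponins Tnnt2 and Tnnc1. Myl1 was not above background on any array. The chondrocyte markers summed to 12.53 in C1 and 12.65 in L1 and to 15.23 to 16.37 elsewhere. Of these, Acan, Col2a1 and Comp passed, all with number 3 the highest, which was also the number with the least Cryab. Sox9 and Matn1 did not pass, with Sox9 highest in number 2 and Matn1 in number 3. Col2a1 contributes most to the chondrocyte sum in numbers 2 to 4. The osteoblast markers summed to 19.06 to 19.53 on the 8 arrays, a sum to which the bright Col1a1, Col1a2 and Sparc contribute most. Of these, Alpl (alkaline phosphatase; means 2.24 apart, adjusted p = 0.0197) and Bglap (osteocalcin; means 1.97 apart, adjusted p = 0.0273) passed the F test of the limma fit. Both were highest in number 1 and lowest in number 4, and the other 8 did not pass. The endothelial receptors Kdr and Tek (2 of 5 tested) and the periosteal gene Postn (1 of 5) passed as well. Tek and Postn were highest in number 1, whereas Kdr averaged 9.32 in numbers 1 and 2. No macrophage marker passed (0 of 5). The part of these cell types in the Cryab and Hspb2 differences was not tested.

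**Figure D4:**
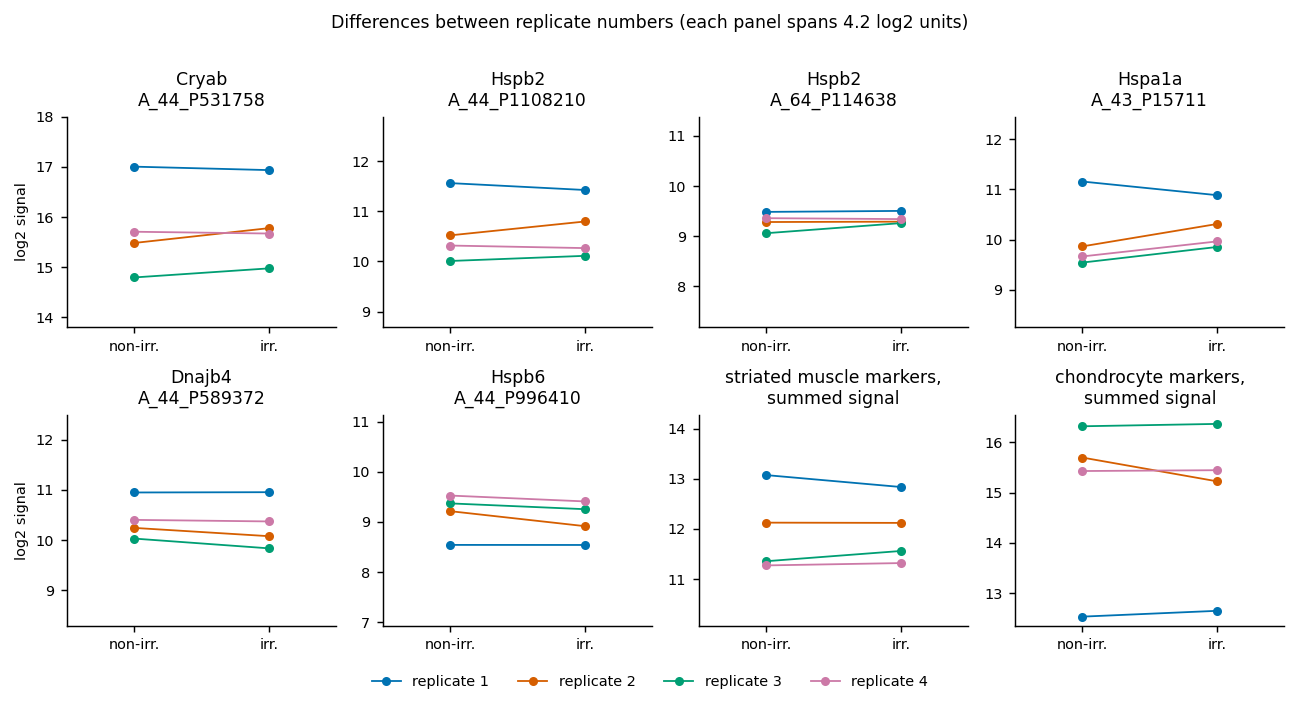
Log2 signal (y axis) of Cryab, both Hspb2 probes, Hspa1a, Dnajb4 and Hspb6 and of the summed striated muscle and chondrocyte markers, with lines joining the non-irradiated and irradiated sample of each replicate number. Number 1 is the highest for Cryab, Hspb2, Hspa1a, Dnajb4 and the muscle markers and the lowest for Hspb6 and the chondrocyte markers, in both groups.

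Arrays C1 and L2, which belong to opposite groups and different replicate numbers, were together the 2 lowest of 8 for 16 of the 94 chaperone probes (16.2% of all probes) and the 2 highest for 19 (17.3% of all probes). Both extremes occurred within single genes. Of 21 genes with several tested probes, 12 had probes whose log2 fold changes differed in sign. For Hspd1, 1 probe was at 10.37 and 10.34 in C1 and L2 and at 10.71 to 11.59 on the other 6 arrays, a mean gap of -0.83, while the brightest Hspd1 probe was 0.16 higher in C1 and L2 than elsewhere. For Hsp90ab1 the gap was -0.87 on 1 probe and 0.46 and 0.17 on the others. Hsp90b1 (-0.75), Hspb1 (-0.70), Dnajb1 (-0.45) and Dnajc5 (-1.62 on its dimmer probe) were also lowest there, and Dnajb14 (0.91), Dnajc7 (0.61 and 0.54 on 2 probes) and Dnajb6 (0.60 and 0.59 on 2 probes) highest. With C1 and L2 left out and no pairing, 0 chaperone probes had an adjusted p below 0.1 and 1 had an unadjusted p below 0.05, a dim Dnaja3 probe with a log2 fold change of -0.67. The median over the chaperone probes was then -0.01. RNA quality values were not used here, and what set these arrays apart was not tested.

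**Figure D5:**
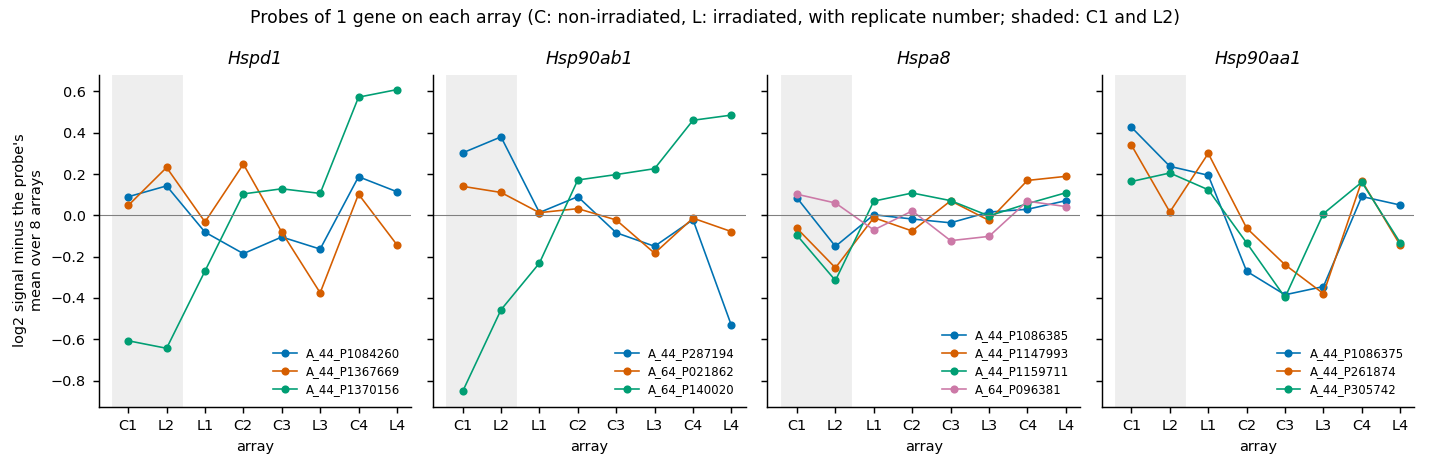
Log2 signal of each probe minus its mean over the 8 arrays (y axis), for the tested probes of Hspd1, Hsp90ab1, Hspa8 and Hsp90aa1 (the opposite-strand probe included), with arrays C1 and L2 shaded. In Hspd1 and Hsp90ab1 1 probe is low in C1 and L2, with mean gaps of -0.83 and -0.87 to the other arrays, while the other probes are above their mean there.

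Partners of these chaperones, from a list of 38 genes, also gave no call between the groups. All 37 that were on the array were tested, and 0 had an unadjusted limma p below 0.05, where 2.56% of all probes did. Of the 37, 14 had a log2 fold change above 0 and 23 below, and the median was -0.02. The smallest p-values were 0.276 for Ptges3, the HSP90 co-chaperone p23, with -0.15 (SE 0.13), and 0.289 for St13, an HSP70-interacting protein, with -0.23 (SE 0.19). C1 and L2 were the 2 lowest arrays for 17 of the 37 partners, among them St13 and the chaperonin subunit Cct4, and the 2 highest for 8, where 16.2% and 17.3% of all probes were. No partner passed the test for the replicate number (0 of 37), where 3.36% of all probes did.

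Finally, 14 chaperone probes were not bright enough in either group to be tested. They were the only probes of Dnajb7, Dnajc30, Dnajc5b, Hspa12a, Hspa1b, Hspa1l, Hspb3 and Hspb7, both probes of Dnajb13 and of Dnajc5g, and 1 probe each of Dnajb6 and Hspa1a. Dnajb13 and Dnajb7 are known from testis, Dnajc5b and Dnajc5g are relatives of the vesicle protein Dnajc5, and Hspb3 and Hspb7 are muscle-enriched. Hspb3 and Hspb7 were each well above background on 2 arrays of either group, and the Dnajb7 and Dnajb13 probes on none.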

How the data were processed

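Total RNA was labelled with Cy3 and hybridised to Agilent 8 x 60K rat arrays, and the scanner files were extracted by the authors with Agilent Feature Extraction 11.0.1.1. The deposited files hold linear spot intensity, already background-subtracted as processed signal; a deposited table of log2 values, quantile normalised by the authors, served only as an alternative, and it holds no columns of comparisons. Here, outlier-flagged spots were left out, processed signals were quantile normalised and log2-transformed, spots of a probe were averaged, and a probe was tested if Feature Extraction called over 50% of its spots well above background on each of the 4 arrays of 1 group or of both. limma 3.58.1 in R 4.3.3 (lmFit, eBayes) was fitted to all tested probes with the replicate number as a block, two-sided, with Benjamini-Hochberg adjustment. The scripts were tested on simulated data. The precision is limited by the 4 arrays per group.

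The scanner files carry a rat number, and samples with the same replicate number share it, so the numbers were taken as pairs. Deviations from the group means correlated over 26250 probes at 0.61, 0.06, 0.57 and 0.75 for numbers 1 to 4. The F test of the replicate number asked for differences between numbers in the same fit. A gene was read on the probe with the highest mean signal. Named genes were those of a heat-inducible list (Hspa1a, Hspa1b, Hsph1, Hspa8, Dnajb1, Dnaja1, Hspb1, Hspb8, Cryab, Hsp90aa1, Hspd1, Hspe1, Bag3) and Hsf1, any with an unadjusted p below 0.05, the smallest p of each class in either direction, the 3 largest and 3 smallest fold changes, the 3 largest F and, of the partners, the 2 smallest p; further probes (such as Hspa5, Dnajb9, Dnajc8 and other probes of a gene) were named after their values were seen. The genes, lists and tests were chosen with earlier results of these data known. RefSeq held the transcript of 91 of the 108 probes, with the symbol unchanged for 90. Probe coordinates are those of the array design (rn4), without exon annotation here.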

Additional observations from a re-analysis of the deposited data

Results flagged for a closer look

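For the genes named by rule, 60 groups of 4 arrays were examined, and in 3 of them (5%, where chance gives about 5%) the lowest or highest array lay far from the others. The dim Dnajc4 probe was at 5.42 in the non-irradiated replicate 1, with 5.79 to 5.87 in the other 3 non-irradiated samples. Hspb1 was at 11.62 in the irradiated replicate 2, with 12.41 to 12.57 in the other 3 irradiated samples. Hspbap1 was at 12.45 in the non-irradiated replicate 1, with 11.73 to 11.80 in the other 3. These are arrays C1 and L2, which stood apart over the whole array.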

How the results depend on the processing

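With 4 pairs the 95% interval of the median chaperone probe ran from 0.79-fold to 1.28-fold, so responses within it were not excluded, and dim probes bounded less. This interval is not the detection limit of the adjusted test. That test called none of the 26399 probes, although their log2 fold changes ran from -1.39 to 2.06. No chaperone probe had an adjusted p below 0.1 under any alternative tried. The restriction to pairs 3 and 4 and the omission of C1 and L2 were chosen after seeing the data. For each change given here the cause was not tested. A name without a probe stands for the gene's brightest probe.

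The count of chaperone probes at an unadjusted p below 0.05 (0) was 0 to 2 with a replicate number left out (2 without number 1, Hspa1a at 0.35 and a dim Dnaja3 probe at -0.66), 1 with a random block (Hspa13), 2 on pairs 3 and 4 (Dnajb8 at 0.47, Dnaja3 at -0.86) and 1 without C1 and L2. Over all probes the count (676) was 250 with normexp, 255 on mean signals, 1663 with dim probes kept, 449 where each of the 8 arrays had to be bright, 292 on the deposited log2 values, 389 to 1404 with a number left out, 359 with a trended robust prior and 1657 on pairs 3 and 4. Without the replicate block, so without the pairing, it was 251, with 0 chaperone probes, and the block changed no other call. Chaperone probes differing between replicate numbers (2) were 6 with normexp, 6 on mean signals, 0 with dim probes kept, 5 on deposited values, 4 with the trended prior, 1 with probes of a gene averaged (Cryab) and 0 to 19 with a number left out (19 without number 2, where 20.9% of all probes passed). The median over all heat-inducible probes was 0.0544 on deposited values. That of Hsf1 and the cofactors was -0.0446 to 0.0506 with a number left out, -0.0343 on pairs 3 and 4 and 0.132 without C1 and L2. That of the mitochondrial genes was -0.0666 to 0.0281 with a number left out, and that of HSP90 -0.00082 on pairs 3 and 4.

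Several fold changes, none of which had passed the test, changed sign. Hspd1 was at -0.00878 with normexp, -0.00879 on mean signals, -0.0344 on deposited values, -0.0838 with probes averaged, -0.0656 on pairs 3 and 4 and -0.00904 without C1 and L2. Hsp90aa1 was at -0.0190 on deposited values and -0.00082 on pairs 3 and 4, and Hsph1 at 0.0205 on deposited values. With a number left out, Hspd1 ran from -0.101 to 0.0656, Hsp90aa1 from -0.0780 to 0.169, Hspb1 from -0.185 to 0.341 (-0.0207 without number 4), Dnaja1 from -0.0241 to 0.149, Dnajb1 from -0.253 to 0.0462, Hsf1 from -0.0446 to 0.0629, Hspb2 from -0.0285 to 0.109, Hspbap1 from -0.0570 to 0.240 and Hspe1 from -0.0195 to 0.0882. The lowest value of Hspd1, Hsp90aa1, Dnaja1, Hsf1, Hspb2, Hspbap1 and Hspe1 and the highest of Dnajb1 came without number 2. On pairs 3 and 4, Bag3 was at -0.0343 and Hsf1 at -0.0376. Without C1 and L2, Dnajb1 was at 0.00477, Dnajb3 -0.104, Dnajb4 0.111 and 0.162, Hspa2 -0.00546 and Hspb8 -0.0541.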
